A study of Drosophila melanogaster with 20 samples.

Results

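SAGA (Spt–Ada–Gcn5 acetyltransferase) is a coactivator complex built from modules, and the genes described here encode its structural core, its TAF-like subunits and its activator-binding subunit. They are wda, Spt7, Spt20, Ada1-1, Ada1-2, Saf6, Taf9, Taf10b, Spt3 and Nipped-A. They were taken by name as 10 of the 17807 gene rows of an RNA-seq count table, and all 10 passed the filter on low counts that left 10904 genes for testing.

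In SAGA, histone-fold proteins related to the TBP-associated factors (TAFs) of the general transcription factor TFIID pair with each other and hold the complex together. Around this core sit the acetyltransferase module with Gcn5 and Ada2b, a deubiquitinase module, a subunit that contacts the TATA-binding protein, and the very large Tra1-type protein that activators bind. Flies carry SAGA-specific relatives of several TFIID subunits, such as wda for Taf5, Saf6 for Taf6 and Taf10b for Taf10, while Taf9 serves both complexes. CHAT, the Gcn5 complex with the Ada2b-PA isoform and Chiffon, contains none of the 10 proteins.

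*Drosophila* embryos at stage 12–14 were compared in 20 libraries from 5 genotypes, with 4 biological replicates each. *Ada2b* null embryos (null) carried the null alleles Ada2b1 and Ada2b842 in trans, together with elav-Gal4 and a UAS-GFP reporter. The same mutant background with a transgene for Ada2b-PA (PA) lacks SAGA and ADA, and with one for Ada2b-PB (PB) it lacks CHAT. The 2 controls were mutant embryos given both transgenes at once (PA+PB), and embryos of elav-Gal4>GFP without the *Ada2b* alleles (WT). Each transgene was present in single copy under the regulatory sequences of *Ada2b*, and each replicate was a pool of GFP-positive embryos picked by hand. elav-Gal4 is active in neurons, so the reporter marked embryos of the wanted genotype and not a cell type. Embryos were taken whole, so fewer cells of a type and less RNA per cell cannot be told apart. WT replicate 3 is labelled stage 12–15 and was kept.

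Counts on genes ran from 1665636 to 35678749 per library. The PA and PB libraries were sparse. Of the genes tested, 21.7% to 51.2% had 0 counts in the PA libraries and 11.7% to 57.0% in the PB libraries, against 2.57% to 3.88% in null libraries, 4.11% to 34.3% in PA+PB libraries and 2.87% to 12.0% in WT libraries. PA replicate 2 and PB replicate 1 were the sparsest. Of the 10 genes, 7 were at 0 in PB replicate 1, 4 in PA replicate 2 and 3 each in PB replicates 2 and 3, but at most 1 in any null library. A floor of 3 counts lay between 0.0984 and 1.40 CPM (counts scaled to the library total, after edgeR's TMM normalization), and it covers counting error only. elav, repo and Mhc, markers of neurons, glia and muscle, had counts in all 20 libraries, as had Pxn, Ubx and Antp. But Mhc ran from 12.1 to 10500 CPM, elav from 39.9 to 959 CPM and repo from 2.44 to 106 CPM. The neuron marker nSyb had 0 counts in 2 PA libraries and 1 PB library. The neuron marker brp and the muscle markers Mf and wupA had 0 counts in 1 PA library each. The hemocyte marker Hml had 0 counts in 2 PA libraries, 3 PB libraries and 1 PA+PB library. He, also a hemocyte marker, did not pass the filter on low counts and had 0 counts in all null, PA, PB and PA+PB libraries. The 12 tissue markers summed to 2970 to 4430 CPM in the null, 482 to 1650 CPM in PA, 1750 to 14300 CPM in PB, 514 to 3040 CPM in PA+PB and 495 to 7340 CPM in WT. *Ada2b* was at 30.7 to 47.1 CPM in the null libraries and at 106 CPM or more in every other library. A list of 9 maternal RNAs summed to 117 to 133 CPM in the null, 369 to 673 CPM in WT, 203 to 618 CPM in PA+PB, 216 to 437 CPM in PA and 0 to 238 CPM in PB. The sum was lower in every null library than in every control library. Against both controls, 2 of the 9 genes, bcd and swa, were called lower in the null, beside 2.70% of all genes. Of the others, plu averaged 0.537 CPM in the null, 30.5 CPM in WT and 32.6 CPM in PA+PB, and osk 0.472, 17.9 and 11 CPM. The means of pgc and png were also lower in the null than in both controls, and that of nanos lay between the controls. Those of gcl and gnu were higher in the null. gcl averaged 107 CPM in the null, 76.8 CPM in WT and 65.7 CPM in PA+PB. gnu averaged 4.97 CPM in the null, 3.04 CPM in WT and 3.60 CPM in PA+PB. The part of these marker differences in the changes below was not tested.

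**Figure D1:**
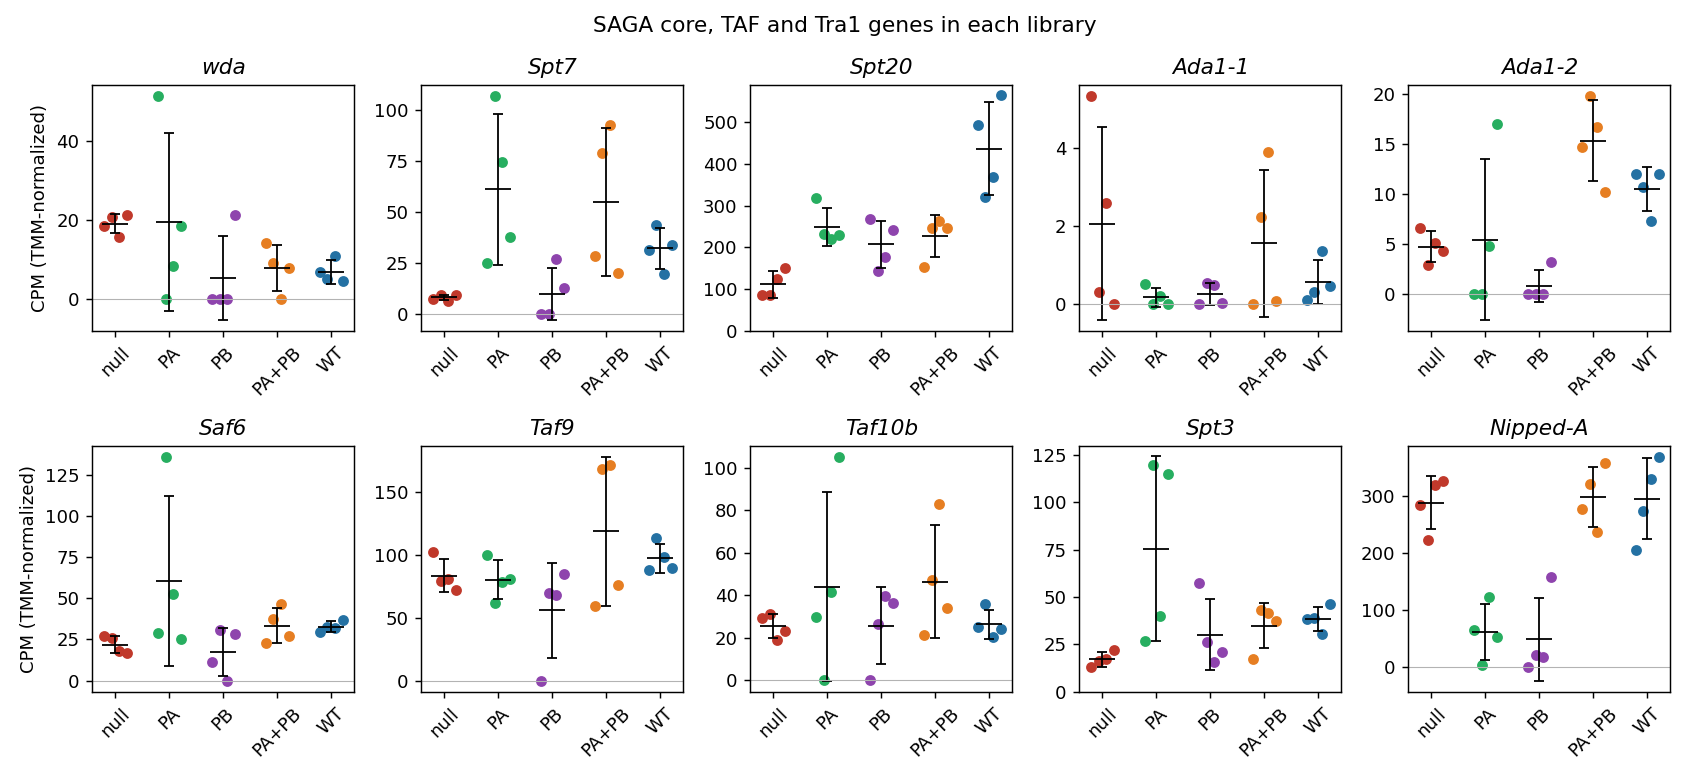
TMM-normalized CPM (vertical axis, linear) of the 10 genes by genotype. Each point is a library, in the order of replicates 1 to 4 from left to right, with the mean and SD (n = 4) in black. The null points lie below all control points for Spt7, Spt20 and Ada1-2 and above them for wda, and the PA and PB points of Nipped-A lie below those of all other genotypes.

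The first question was whether loss of *Ada2b* altered RNA of the core that Ada2b joins. A gene was called when its FDR was under 0.05 in edgeR's quasi-likelihood test and its log2 fold change at least 0.5 in size, in a fit of all 5 genotypes with 1 factor of unwanted variation. Against WT, 1 of the 10 genes was called in the null, Spt20, beside 4.59% of all genes tested. Against PA+PB, 0 were called, beside 3.38% of all genes. Against both controls together, 0 of the 10 were called in the null, beside 2.70% of all genes. At an unadjusted p under 0.05, 1 gene was lower against WT and 3 were lower against PA+PB in this fit, with 0 higher in either comparison. The shares of all genes in either direction were 14.2% and 17.1%. Among the 3 was Nipped-A at -1.72, although it averaged 287 CPM in the null and 298 CPM in PA+PB. It was at -0.05 with no factor of unwanted variation. The median log2 fold change of the 10 genes was -0.76 against WT and -1.29 against PA+PB, beside medians of -0.18 and -0.27 over all genes. With no factor of unwanted variation, the median over all genes against WT moved to 0.40 and that of the 10 genes to -0.40, so directions below are given with the CPM of each library.

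Spt20 (FBgn0036374) encodes a core subunit that is needed for the integrity of SAGA in yeast. It lies on chromosome 3L (plus strand) between 13502707 and 13511541 (BDGP6, dm6), with 8181 bp of exons and no overlapping gene. Its CPM in replicates 1 to 4 were 85.9, 85.9, 124 and 150 in the null, and 492, 320, 368 and 564 in WT. They were 153, 247, 263 and 247 in PA+PB. All null libraries were thus lower than all control libraries, although null replicate 4 and PA+PB replicate 1 were nearly equal. Relative to WT it fell in the null by 1.92 on the log2 scale (SE 0.31, FDR = 0.00332). Relative to PA+PB the log2 fold change of -0.95 (SE 0.32, FDR = 0.107) did not pass.

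The 2 controls themselves differed in Spt20, and here WT was the higher. The lowest WT library (320 CPM) lay above the highest PA+PB library (263 CPM), a separation found in that direction at 3.12% of genes. The log2 fold change of WT against PA+PB was 0.98 (SE 0.31, unadjusted p = 0.00443, FDR = 1). None of the 10 genes was called between the controls, beside 0.0183% of all genes. At an unadjusted p under 0.05, 1 of the 10 (Spt20) and 3.65% of all genes differed.

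PA libraries had Spt20 at 317, 231, 220 and 229 CPM and PB libraries at 267, 144, 177 and 241 CPM. Both sets lay below all WT libraries and overlapped PA+PB. PA lay above all null libraries, and PB overlapped the null only in replicate 2 (144 CPM). Against the null, the log2 fold change was 1 in PA (SE 0.35, FDR = 0.137) and 0.72 in PB (SE 0.35, FDR = 0.377). Spt20 was among the 3 genes whose PA libraries all exceeded the null, with Spt7 and Spt3, as were 9.29% of all genes.

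Whether Spt20 counted as changed against both controls depended on PA+PB replicate 1 and on the sparse libraries. Without PA+PB replicate 1, the log2 fold change against PA+PB was -1.11 (FDR = 0.0483), and 1 of the 10 genes was called against both controls, beside 3.99% of all genes. Without PA replicate 2 and PB replicate 1, it was -1.05 (FDR = 0.023), again with 1 of the 10 called, beside 8.02% of all genes. With DESeq2's Wald test it was -0.84 (FDR = 0.0329), with 1 of the 10, beside 5.76%. With every library thinned to the depth of the smallest, the call against WT was lost (-1.20, FDR = 0.0868).

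Over the 20 libraries, the genes most like Spt20 in centred log2 CPM were mop, Ufd4 and Jarid2. Their root mean square differences from it were 0.31, 0.31 and 0.33 on the log2 scale, and the same 3 came out with a smaller prior count. Jarid2 encodes a partner of Polycomb repressive complex 2, Ufd4 a ubiquitin ligase and mop a protein tyrosine phosphatase of endosomal sorting.

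Spt7 (FBgn0030874) encodes the histone-fold partner of Taf10-type proteins in the core. It lies on chromosome X (plus strand) between 17850460 and 17851889, with 1309 bp of exons, of which 21 bp are shared with CG32554 on the other strand. Its CPM were 7.51, 9.20, 6.50 and 9.07 in the null, 31.6, 43.9, 19.6 and 33.8 in WT, and 28.3, 79.1, 93.0 and 19.9 in PA+PB. The null libraries were uniform and all lay below the lowest control. Log2 fold changes of -1.99 relative to WT (SE 1.16, FDR = 0.506) and -2.76 relative to PA+PB (SE 1.29, FDR = 0.28) did not pass in the fit of all genotypes.

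In PA, Spt7 was at 25.2, 107, 74.6 and 37.9 CPM, above every null library. In PB, it was at 0, 0, 26.9 and 12.7 CPM, so that replicates 1 and 2 had no count and the others exceeded the null. The log2 fold change of PB against PA was -2.61 (SE 1.24, FDR = 0.229).

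Ada1-1 and Ada1-2 are copies, lying in tandem, of the gene for Ada1, the histone-fold partner of Taf12 in SAGA. Ada1-2 (FBgn0051866) lies on chromosome 2L (plus strand) between 11992902 and 11994054 and Ada1-1 (FBgn0051865) from 11996809 to 11997965. Reads matching both copies were not counted, so the values of either copy are uncertain. Each also shares 66 bp of exons with a gene on the other strand.

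Ada1-2 was at 6.57, 2.89, 5.15 and 4.30 CPM in the null, 12.0, 10.7, 7.33 and 12.0 in WT, and 14.7, 19.8, 16.7 and 10.2 in PA+PB. The null again lay below all controls, without overlap. In PB it had 0 counts in replicates 1 to 3 and 3.25 CPM in replicate 4, below all controls. In PA it was at 0, 0, 4.85 and 17 CPM, spanning the range of all other groups. No comparison of Ada1-2 passed in the fit of all genotypes, and its largest log2 fold change was -4.48 in PB against PA+PB (SE 1.76, FDR = 0.101).

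Ada1-1 was near the floor. It had 0 to 3 counts in every PA and PB library and 3 to 35 counts in WT, and its highest value was 5.33 CPM, in null replicate 1. No fold change is given for Ada1-1 in PA or PB, where no library had more than 3 counts.

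wda (FBgn0039067, will decrease acetylation) encodes the WD-repeat protein that takes the place of Taf5 in SAGA. It lies on chromosome 3R (minus strand) between 23255070 and 23258087, with 2744 bp of exons. It was the only one of the 10 genes with higher CPM in all null libraries than in all controls. Its CPM were 18.6, 20.7, 15.8 and 21.4 in the null, 6.83, 5.09, 11 and 4.43 in WT, and 14.3, 9.14, 0 and 7.72 in PA+PB. PA libraries were at 51.5, 0, 8.33 and 18.5 CPM, and PB libraries at 0, 0, 0 and 21.4 CPM. The range of PA thus contained all other groups.

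The direction of wda in the null depended on the model. Its log2 fold change against WT was -0.56 (SE 1.38, FDR = 0.946) in the fit of all genotypes, opposite to the CPM, and 1.48 (FDR = 0.844) with no factor of unwanted variation. With only the null and WT libraries in the fit it was 1.35 (SE 0.41, FDR = 0.0237) and wda was called. The factor was higher in every null library (1.30 to 1.31) than in every library of the other genotypes. It ran from 1.10 to 1.29 in WT, 0.794 to 1.29 in PA+PB, 0.489 to 1.13 in PA and 0.204 to 1.19 in PB. In the fit of all genotypes it thus went in part with genotype in every comparison with the null. Its part in this reversal was not tested.

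Without overlap in CPM, 3 of the 10 genes (Spt7, Spt20 and Ada1-2) lay lower in the null than in all 8 controls, beside 14.0% of all genes, and 1 (wda) lay higher, beside 10.2%. Against WT alone, Spt3 and Saf6 joined them, which made 5 of the 10 lower, beside 19.8% of all genes. With only the null and WT libraries in the fit, the calls were Spt7 (log2 fold change -2.11, FDR = 0.00159), Spt20 (-2.12, FDR = 0.000631), Ada1-2 (-1.35, FDR = 0.0385) and Spt3 (-1.26, FDR = 0.00923), all lower, and wda, higher. These 5 of the 10 stood beside 36.6% of all genes called in that fit. The median SD of log2 CPM over all genes was 0.36 in the null and 0.64 in WT, but 1.13 in PA, 2.59 in PB and 1.19 in PA+PB, which enter the estimate of the spread in the larger fit.

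**Figure D2:**
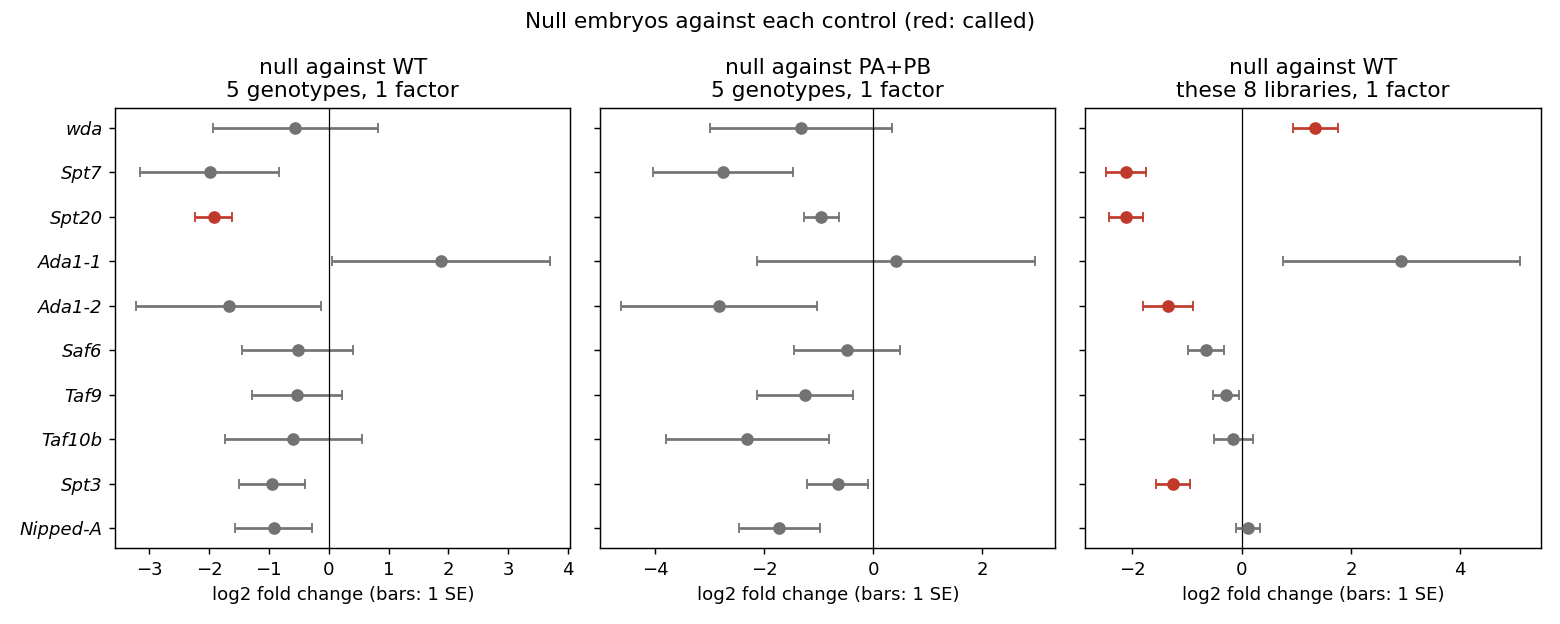
Log2 fold changes of the 10 genes in the null against WT and against PA+PB in the fit of all 5 genotypes, and against WT with only these 8 libraries in the fit. Bars are 1 SE and red points were called. Spt20 is red in the first panel, no gene in the second, and wda, Spt7, Spt20, Ada1-2 and Spt3 in the third, where wda has changed side.

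Spt3 (FBgn0037981) encodes the subunit that contacts the TATA-binding protein. It lies on chromosome 3R (plus strand) between 12017156 and 12018550 and overlaps no other gene. Its CPM were 12.9, 16.3, 17.3 and 22.2 in the null, 38.6, 39.0, 30.5 and 46.2 in WT, and 17.3, 43.0, 41.6 and 37.4 in PA+PB. The null lay below all WT libraries and overlapped PA+PB only through PA+PB replicate 1. PA libraries were at 26.9, 120, 39.9 and 115 CPM, above all null libraries, and PB libraries at 57.7, 26.4, 15.7 and 21.2 CPM, which overlapped the null. The log2 fold change was -0.95 in the null against WT (SE 0.55, FDR = 0.499) and 1.26 in PA against the null (SE 0.66, FDR = 0.317).

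The TAF-like genes were called in none of the 10 comparisons of genotypes. Taf9 (FBgn0000617, also e(y)1) encodes a histone-fold protein that SAGA shares with TFIID, and it lies on chromosome X (plus strand) between 17842161 and 17843348. Its CPM were 102, 78.8, 80.9 and 72.2 in the null and 87.7, 113, 98.4 and 89.6 in WT. The ranges overlapped, with a log2 fold change of -0.53 and a 95% interval from -2.09 to 1.04. PA libraries were at 61.5 to 99.5 CPM, PA+PB libraries at 59.3 to 171 CPM, and PB libraries at 68.4 to 85.1 CPM apart from replicate 1, at 0.

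Taf10b (FBgn0026324) encodes a histone-fold partner within the core and lies on chromosome 2L (minus strand) between 2767286 and 2767845. It was at 29.1, 31.2, 18.9 and 23.3 CPM in the null and at 24.8, 36.0, 20.3 and 24.0 CPM in WT, with overlapping ranges (log2 fold change -0.59, 95% interval from -2.97 to 1.78). PA ran from 0 to 105 CPM, PB from 0 to 39.8 CPM and PA+PB from 21.4 to 82.9 CPM.

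Saf6 (FBgn0031281) encodes the Taf6-like partner of Taf9 in SAGA. It lies on chromosome 2L (minus strand) between 813314 and 815950 and shares 67 bp of exons with Dbp21E2 on the other strand. Its CPM were 27.4, 25.6, 18 and 16.6 in the null, and 29.5, 32.8, 31.8 and 37.1 in WT. The null lay below WT by a narrow margin and overlapped PA+PB (22.8 to 46.6 CPM). The log2 fold change against WT was -0.52 (SE 0.93, 95% interval from -2.45 to 1.42, FDR = 0.918). For these 3 genes the intervals contain changes of more than 1 in either direction, so that changes of that size were not excluded in the fit of all genotypes.

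Nipped-A (FBgn0053554) encodes the fly Tra1, a pseudokinase of the PIKK family that activators bind and that SAGA shares with the Tip60 complex. It lies on chromosome 2R (minus strand) between 5177965 and 5251022, with 11519 bp of exons. CPM were 284, 223, 318 and 325 in the null, 205, 274, 330 and 368 in WT, and 277, 320, 237 and 357 in PA+PB. PA libraries were at 64.2, 3.55, 123 and 52.2 CPM and PB libraries at 0, 20.3, 17.9 and 157 CPM. The null therefore lay within the controls, and all 8 PA and PB libraries lay below all 12 other libraries.

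Such a separation, PA and PB both below the other 3 genotypes, was found at 1 of the 10 genes and at 1.34% of all genes. Among the 12 other SAGA and CHAT genes it was found at 1, Sf3b5, which was singled out after its values were seen and encodes a protein shared with the splicing factor SF3B. Sf3b5 was at 1.32 to 31.9 CPM in PA and 0 to 27.4 CPM in PB, against 36.3 to 60.7 CPM in the null, 51.0 to 195 CPM in PA+PB and 54.6 to 87.7 CPM in WT. PA libraries were below all 8 controls at Nipped-A alone, beside 4.93% of all genes, and PB libraries at Nipped-A and Ada1-2, beside 8.62%. The mean level was 60.7 ± 49.1 CPM (SD, n = 4) in PA and 48.7 ± 72.5 CPM in PB, against 294 ± 70.9 CPM in WT, 298 ± 52.0 CPM in PA+PB and 287 ± 46.3 CPM in the null.

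Nipped-A fell in PB relative to PA+PB by 3.09 on the log2 scale (SE 0.68, FDR = 0.0141), and was the only one of the 10 genes called there, beside 6.59% of all genes. In the same comparison the tissue markers had a median log2 fold change of 2.39, and of 2.72 in PB against WT, with 0 of 11 tested called in either. Their part in the Nipped-A values was not tested. Against WT its log2 fold change was -2.29 (SE 0.67, FDR = 0.0922), so that 0 of the 10 were called in PB against WT, beside 0.835% of all genes, and 0 against both controls, beside 0.752%. In PA the log2 fold change was -1.92 against PA+PB (SE 0.64, FDR = 0.119) and -1.12 against WT (SE 0.69, FDR = 0.436). No gene of the 10 was called in PA against PA+PB, WT or both, beside 0.532%, 0.110% and 0.0917% of all genes. At an unadjusted p under 0.05, 2 of the 10 were lower in PB against WT and 3 against PA+PB, beside 22.0% and 29.9% of all genes in either direction. In PA, 1 was lower and 1 higher against either control, beside 14.6% of all genes against WT and 20.5% against PA+PB.

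Calls at Nipped-A rested on single libraries. Without PA replicate 2 and PB replicate 1, the log2 fold changes were -2.13 (FDR = 0.005) in PB against WT and -2.46 (FDR = 0.00177) against PA+PB, and -1.71 (FDR = 0.0291) and -2.03 (FDR = 0.0187) in PA. Then 1 of the 10 genes was called against both controls in PB, beside 7.46% of all genes, and 1 in PA, beside 1.62%. Against the null, the log2 fold change of Nipped-A with all libraries was -0.2 in PA and -1.37 in PB, neither of them called. Without PA replicate 2 and PB replicate 1 it was -1.61 in PA (FDR = 0.0111) and -2.03 in PB (FDR = 0.0253). With no factor as well, Nipped-A was called only in PB against PA+PB (-2.19, FDR = 0.0412), and 0 of the 10 were called against both controls in PA or PB. Its log2 fold change was then -2.19 in PB against WT (FDR = 0.0545), -1.89 in PA against WT (FDR = 0.138) and -1.90 in PA against PA+PB (FDR = 0.119). Against the null it was -1.85 in PA (FDR = 0.0552) and -2.14 in PB (FDR = 0.0735). PB replicate 1 alone gave the call against both controls in PB when left out, beside 3.78% of all genes.

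Without PB replicate 4, the deepest PB library and the highest in Nipped-A, 2 of the 10 genes were called in PB against both controls, beside 5.48% of all genes. They were Nipped-A (log2 fold change -4.38 against WT and -4.79 against PA+PB) and Ada1-2, which then had 0 counts in all PB libraries. The call against PA+PB was lost without PB replicate 2 (-2.97, FDR = 0.0538), without PA+PB replicate 3 (-2.12, FDR = 0.117) and with no factor of unwanted variation (-2.60, FDR = 0.124). It was also lost with only the PB and PA+PB libraries in the fit (-2.56, FDR = 0.286), and when that fit had no factor. With DESeq2's Wald test, Nipped-A was called in PB against both controls, as the only one of the 10, beside 9.32% of all genes.

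Nipped-A was lowest in the sparsest libraries, at 0 CPM in PB replicate 1, with 57.0% of tested genes at 0, and at 3.55 CPM in PA replicate 2, with 51.2%. No control library was as sparse. PA+PB replicates 2 and 3, with 20.7% and 34.3% of tested genes at 0, had 320 and 237 CPM, while PA replicates 3 and 1, with 21.7% and 31.3%, had 123 and 64.2 CPM. PB replicate 4, with 11.7% at 0, had 157 CPM, and WT replicate 2, with 12.0% at 0, had 274 CPM. The part of sparsity in the difference was not tested.

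**Figure D3:**
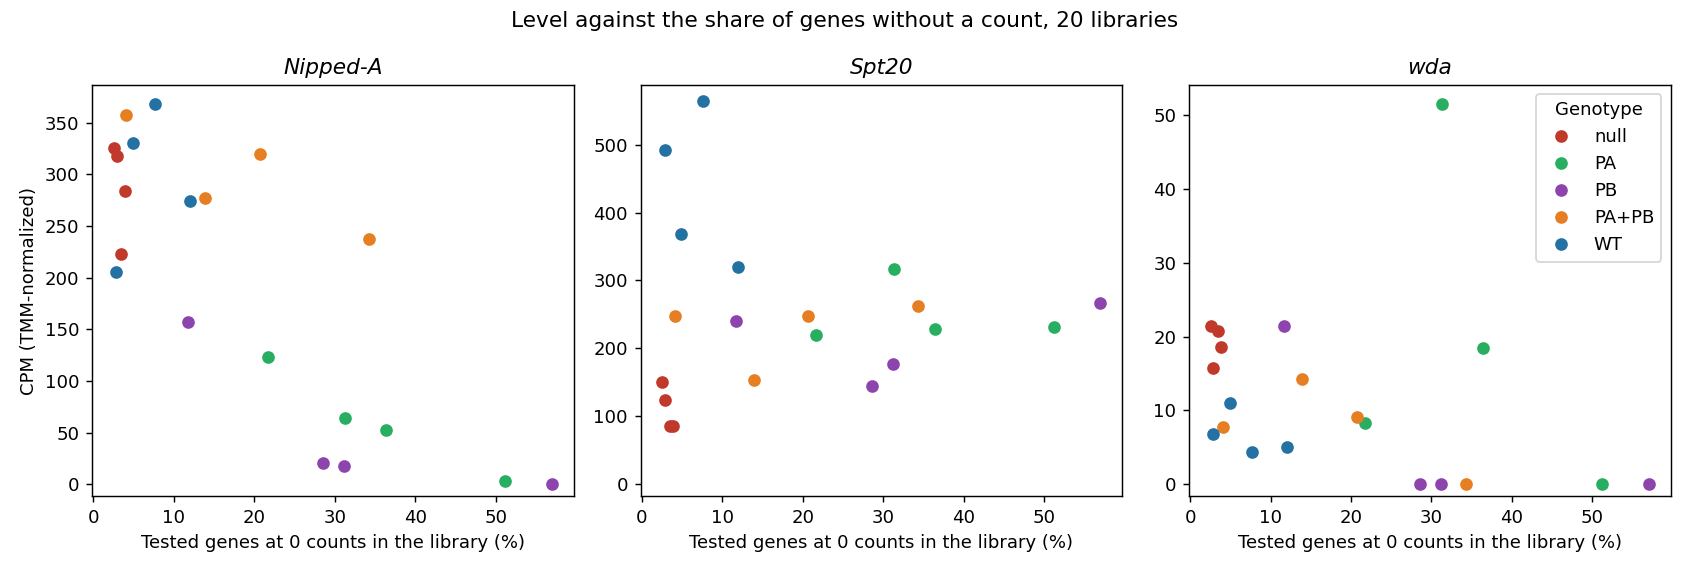
TMM-normalized CPM of Nipped-A, Spt20 and wda (vertical axes, linear) against the percent of tested genes with 0 counts in each library (horizontal axis), with 1 point for each of 20 libraries coloured by genotype. For Nipped-A the PA and PB points lie at 157 CPM or less and the points of the other genotypes at 205 CPM or more, and for Spt20 the null points, at 150 CPM or less, lie at the left end of the horizontal axis.

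Over the 20 libraries, the genes most like Nipped-A were anne, ova and p120ctn, with root mean square differences of 0.47, 0.79 and 0.80 on the log2 scale. ova encodes a germline protein of heterochromatin silencing and p120ctn a catenin that binds cadherin.

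In the direct comparisons with the null, 0 of the 10 genes were called in PA, beside 2.14% of all genes, and 0 in PB, beside 0.138%. At an unadjusted p under 0.05, 2 genes (wda and Spt20) had positive log2 fold changes in PA against the null. Over all genes, 17.9% passed in either direction. In PB 0 passed, beside 13.5% of all genes. The direction of wda again depended on the model. It averaged 19.6 CPM in PA and 19.1 CPM in the null, and its log2 fold change was 0.04 with no factor. Between PB and PA, 0 of the 10 were called, beside 0.00917% of all genes, and at an unadjusted p under 0.05 wda, Spt7 and Spt3 were lower in PB, beside 21.4% of all genes in either direction. The median log2 fold change was -1.32 for the 10 genes and -0.14 for all. These comparisons share libraries with those above.

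Levels were compared between genes as CPM per kb of exons. In WT, Taf9 was the highest at 86.5 ± 10.4 (SD, n = 4), followed by Spt20 at 53.3 ± 13.7 and Taf10b at 46.9 ± 12.1, which overlapped each other and not Taf9. Spt3, Nipped-A and Spt7 followed at 27.6, 25.6 and 24.6 and overlapped, then Saf6 at 13.6, whose range met that of Spt7. Ada1-2 at 9.66, wda at 2.49 and Ada1-1 at 0.511 were each separated from the one before. In the null, Spt20 was at 13.6 ± 3.82, below Nipped-A at 25.0 ± 4.02 without overlap, and Spt7 at 6.17 ± 0.992 overlapped wda at 6.97 ± 0.921. The range of levels between members was thus wide in every genotype, with Taf9 or Taf10b at the top and Ada1-1 at the bottom. The levels of Ada1-1 and Ada1-2 leave out reads matching both copies, so their places in this order are uncertain.

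SAGA-specific genes were mostly expressed below their TFIID relatives. wda was below Taf5 in all 20 libraries, with 2.49 ± 1.07 against 29.2 ± 2.56 CPM per kb in WT and 6.97 ± 0.921 against 16.9 ± 5.04 in the null. Saf6 was below Taf6 in every null, WT and PA+PB library and in 3 of 4 PA and 3 of 4 PB libraries. Ada1-2 was below Taf4 in all libraries, but reads matching both Ada1 copies were not counted, so its level is uncertain. Taf10b and Taf10 were close, at 46.9 ± 12.1 and 46.2 ± 10.9 in WT.

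Spt7 and Taf3 changed order between genotypes. Spt7 was the lower in all WT and null libraries, with 6.17 ± 0.992 against 51.2 ± 8.72 CPM per kb in the null, and the higher in all PA libraries, with 46.7 ± 28.3 against 13.5 ± 4.75. The order was mixed in PA+PB, where Spt7 was the higher in 2 of 4 libraries, and in PB, where it was so in 1 of 4. Spt3 was below Taf13 in all null, WT and PA+PB libraries and in 2 of 4 PA and 3 of 4 PB libraries. It was below Taf11 in all but 2 PA libraries.

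**Figure D4:**
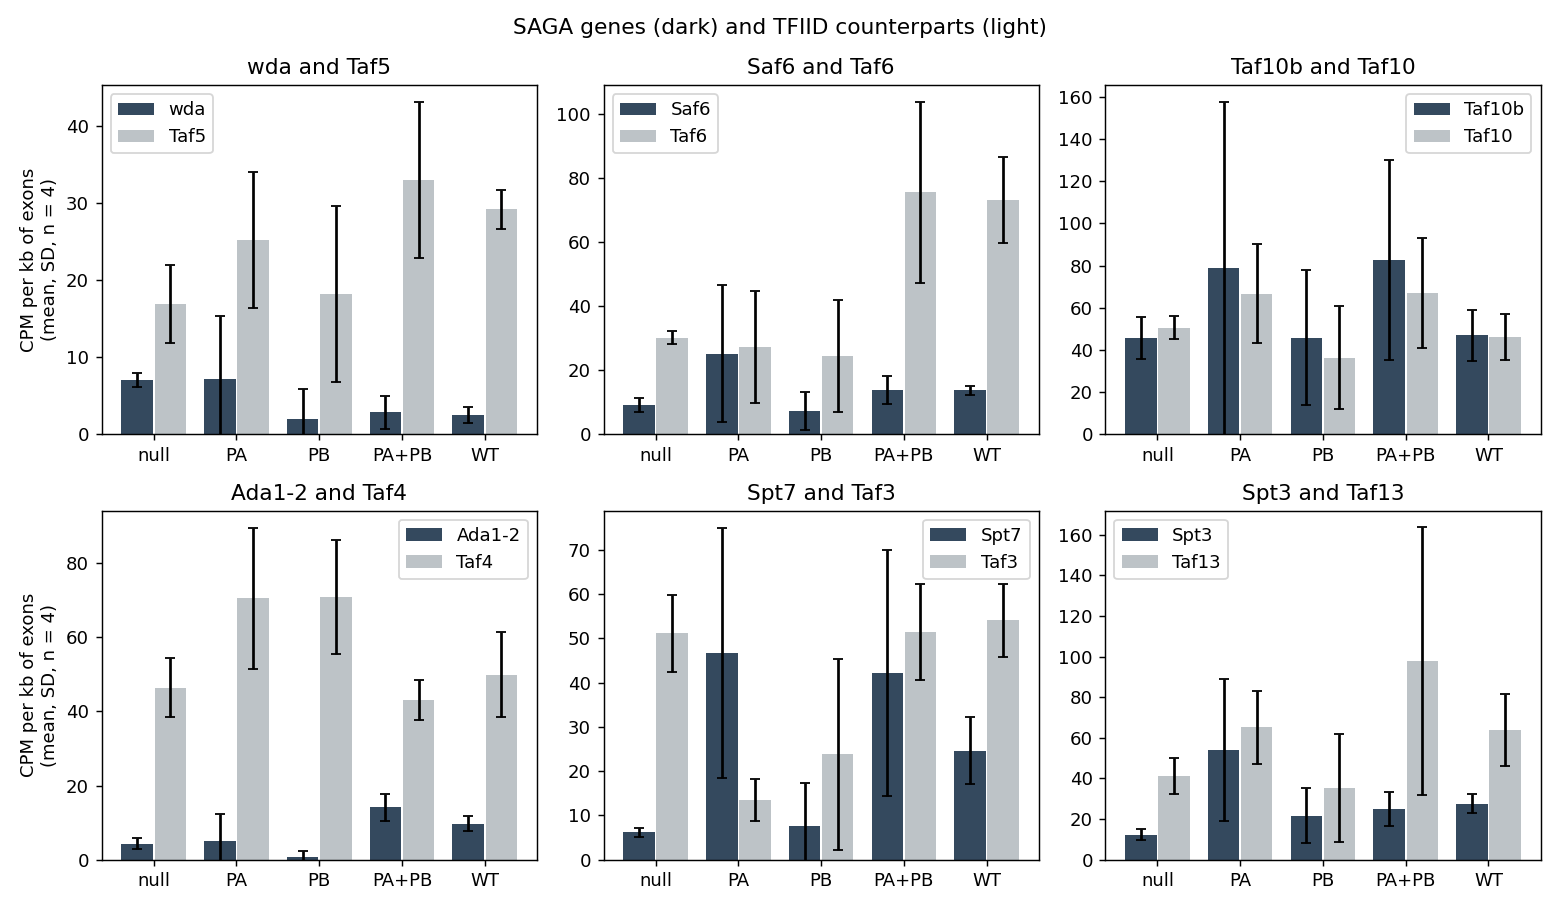
CPM per kb of exons (vertical axes, from 0) of 6 SAGA genes (dark bars) and the TFIID subunits they resemble (light bars) in each genotype, as mean and SD of 4 libraries, with error bars ended at 0 where they would pass below it. wda stays under Taf5 and Ada1-2 under Taf4 in every genotype, while Spt7 exceeds Taf3 in PA only.

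Other genes of these complexes were counted in the same fit. Of all genes tested, 4.59% were called in the null against WT and 3.38% against PA+PB. Of 12 other SAGA and CHAT genes, 2 fell in the null against WT, *Ada2b* and chif, which encodes Chiffon (log2 fold change -1.21, FDR = 0.00774). *Ada2b* is mutated in the null and supplied by the transgenes, so its calls are not results about the rest of the list. Against PA+PB, *Ada2b* alone fell. Of 13 TFIID genes, 1 fell against WT, Taf1, the largest TFIID subunit (-1.09, SE 0.29, FDR = 0.0334), and 0 were called against PA+PB. Of 14 Tip60 complex genes, which with Nipped-A form that complex, 2 fell against WT: dom, its ATPase (-1.09, FDR = 0.0192), and E(Pc), its Enhancer of Polycomb subunit (-0.95, FDR = 0.0392). None was called against PA+PB. Taf12 was counted among both the SAGA and the TFIID genes.

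Median log2 fold changes in the null against WT were -1.17 for the 12 SAGA and CHAT genes, -0.92 for TFIID and -0.90 for Tip60, beside -0.76 for the 10 genes and -0.18 for all genes. In PA against the null, 2.14% of all genes were called. Of the 12 SAGA and CHAT genes, 3 rose (Atxn7, chif and *Ada2b*, which the transgene supplies), as did Tip60 and E(Pc) of the Tip60 complex. Of the 13 TFIID genes, 0 were called. In PB against PA+PB, 6.59% of all genes were called. Taf2 fell there (-1.22, FDR = 0.0483), while 0 of the 14 Tip60 genes were called and their median was -0.42. Single Tip60 genes went both ways. Gas41 averaged 3.31 CPM in PB and 38.3 CPM in PA+PB, and MrgBP averaged 77.6 CPM in PB and 26.8 CPM in PA+PB. Both genes were picked after their values were seen. Testis-specific TAFs, paralogs used in the male germ line, summed to at most 13.6 CPM over 5 genes in any library, and 1 of the 5 passed the filter on low counts.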

How the data were processed

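The deposited values are raw counts of reads per gene. RNA of embryo pools was made into libraries with the Ovation RNA-seq System V2 (NuGEN) with ribosomal RNA depletion. The authors trimmed reads with Trimmomatic, mapped them with HISAT2 to the fly genome (dm6) and made these counts with htseq-count (0.11.1, default settings). These settings leave out reads matching several places. The kit is not stated to mark strand, and default htseq-count assumes it, so overlapping antisense genes are noted. The 20 column names stand 1 field to the right of the values and were assigned in order. Summary rows (5) and transgenes (2) were left out.

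Tests were run with edgeR (4.0.16) under R (4.3.3). After removal of 138 rRNA genes, filterByExpr and TMM normalization were applied, and 1 factor of unwanted variation was estimated from replicates, after RUVSeq's RUVs. All 20 libraries entered 1 quasi-likelihood fit, and p-values were adjusted over 10904 genes (Benjamini-Hochberg). Each SE is the absolute log2 fold change divided by the square root of F. CPM are per library, without a prior count. Genes most alike were found on log2 CPM with a prior count of 2. Symbols and positions came from Ensembl release 115 (17710 of 17807 gene rows matched). The model was also run on simulated counts, with the factor shuffled over libraries, genes of low level left out and the same spread for all genes and libraries. The real factor was highest in the null and the PA and PB libraries were sparse. That run therefore does not show how the model performs on these data. Alternatives changed the normalization, filter, factors, test, depth and libraries, and DESeq2 (1.42.0) gave size factors and a Wald test.

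The 10 genes and all lists were chosen with earlier results of these data known. All 10 genes are named. Of the other lists, genes called in a comparison, at most 4 per list, and the TFIID counterparts are named. Counts depend on depth, which ran from 1665636 to 35678749, and p-values measure the spread between pools of embryos. The chiffon experiments were not analysed here.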

Additional observations from a re-analysis of the deposited data

Results flagged for a closer look

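Within each genotype, the 4 CPM of each gene were examined for a library whose gap to its nearest neighbour was a larger share of the whole range than Dixon's critical value allows. Of 50 groups of 4 libraries, 5 had such a library. Chance flags about 1 in 20 groups of normally distributed values, a rate that does not apply to groups with libraries at 0. PB replicate 4, the deepest PB library, stood apart at 3 genes. There wda was at 21.4 CPM and Ada1-2 at 3.25 CPM, with 0 in the other PB libraries, and Nipped-A was at 157 CPM, with 0 to 20.3 CPM in the others. With the other libraries at 0, any count in PB replicate 4 would have flagged wda and Ada1-2. Spt20 stood apart in PA replicate 1, at 317 CPM against 220 to 231 CPM, and in PA+PB replicate 1, at 153 CPM against 247 to 263 CPM.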

How the results depend on the processing

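Results were recomputed under 33 alternatives, of which 20 left out 1 library each and 3 were chosen after seeing the data (only the groups compared with no factor, and leaving out PA replicate 2 and PB replicate 1 with and without the factor). Of the 34 gene changes followed, the Spt20 decrease against WT kept its direction throughout (-2.21 to -1.20) and was lost only with thinned libraries. The Nipped-A decrease in PB against PA+PB kept its direction (-4.79 to -2.03) and lost its call in 5 of the 33 alternatives. The cause of the shifts was not tested.

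Replicate numbers did not pair the libraries (median r 0.01 for 40 pairs of the same number and 0 for 120 of different numbers). With a replicate block, the same calls remained, Spt20 at -1.90 (FDR = 0.00497) and Nipped-A at -3.34 (FDR = 0.0139).

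Counts of called members follow, each with the share of all genes called in the same setting. In the null against both controls they numbered 1 with DESeq2's Wald test (Spt20, 5.76%), with only the null and both controls in 1 fit (Spt7, 7.12%), and without the 2 sparse libraries with (8.02%) or without the factor (6.72%), 2 with only these groups and no factor (Spt7 and Spt20, 11.7%), and 0 to 1 with a replicate left out (3.99% at 1). In PA against both controls they numbered 1 without the 2 libraries (1.62%). In PB against both they numbered 1 with DESeq2's test (9.32%) and without the 2 libraries (7.46%), and 0 to 2 with a replicate left out (5.48% at 2). In the null against WT they numbered 5 with only the groups, with (36.6%) or without the factor (28.2%), and 0 after thinning (1.55%). In the null against PA+PB they numbered 1 with DESeq2's test (10.7%) and without the 2 libraries with (10.8%) or without the factor (9.46%), 2 with only the groups and no factor (13.7%), and 0 to 1 with a replicate left out (6.17% at 1). In PA against WT they numbered 1 with DESeq2's test (7.63%) and without the 2 libraries (2.31%). In PA against PA+PB they numbered 1 in the same settings (12.0% and 3.47%) and 0 to 1 with a replicate left out (5.11% at 1). In PB against WT they numbered 2 with DESeq2's test (11.1%), 2 without the 2 libraries (8.94%), 1 when the factor was also dropped (2.58%), and 0 to 3 with a replicate left out (6.47% at 3). In PB against PA+PB they numbered 0 with no factor (2.74%) or only the groups, with (0.0351%) or without the factor (0.117%), 2 with 2 factors (14.1%) or DESeq2's test (22.0%), and 0 to 3 with a replicate left out (10.6% at 3). In PA against the null they numbered 1 with no factor (5.64%), 3 with only the groups, with (10.8%) or without the factor (21.4%), and without the 2 libraries 3 (11.8%), or 2 without the factor (8.36%). In PB against the null they numbered 1 without the 2 libraries (1.13%) and 0 to 1 with a replicate left out (3.52% at 1). In PB against PA they numbered 1 with DESeq2's test (13.1%) and 0 to 2 with a replicate left out (2.09% at 2).

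Some uncalled changes turned direction. In the null against WT, wda was at 1.48 with no factor, 0.69 with DESeq2's test, 1.35 with only the groups, 1.33 when these had no factor, 0.68 without the 2 libraries, 1.47 when the factor was also dropped, and -1.01 to 0.30 with a replicate left out (0.17 without PA replicate 2). Against PA+PB it was at 1.30 with no factor, 0.17 with DESeq2's test, 1.71 after thinning, 1.22 with only the groups and no factor, 0.96 without the 2 libraries and 1.29 when the factor was also dropped. After thinning, Spt3 was at 0.82 and Saf6 at 0.68 against WT. With 3 factors, Taf9 was at 0.24, Taf10b at 0.13 and Nipped-A at 0.00 against WT, and with only the groups Nipped-A was at 0.11. Ada1-2 in PB against WT was at 0.40 with only the groups, and Nipped-A in PA against the null at -1.10 to 0.22 with a replicate left out (0.06 without PA+PB replicate 1).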
